A study of Mus musculus with 6 samples.

Results

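A broad H3ac domain is a stretch of 20 kb or more that the deposited table lists as 1 unbroken region of acetylated histone H3 (H3ac). The members were all rows whose interval was 20000 bp or longer in mm10, whatever groups the row was assigned to, and 1707 of 24431 regions met this length rule. H3ac had been profiled by CUT&RUN, in which an antibody brings a nuclease to marked chromatin in permeabilised cells and the released fragments are sequenced. The cells were cultured mesenchymal stem cells (MSCs), multipotent stromal cells, from mice of 2 ages. Young MSCs came from mice aged 3 to 5 months, whereas Old and OldAcetate MSCs came from mice aged 18 to 22 months, and all cells were kept at 2% oxygen. Young and Old cells had no treatment, and OldAcetate cells were given 5 mM sodium acetate for 3 days. Each group had 2 libraries, and nothing in the labels says that these came from separate cultures or animals, so the p-values measure the spread between these libraries only. The signal is an average over a cell population, and fewer acetylated cells cannot be told apart from less acetylation per cell. Values were read as relative to all reads of a library, so neither can be told apart from more background reads outside regions.

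Histone acetylation is written by acetyltransferases that draw on acetyl-CoA, is removed by deacetylases, and marks promoters and enhancers that are open for transcription. Long unbroken stretches of acetylated chromatin, often described as broad domains or clustered enhancers, are known to lie over genes that define a cell type and over genes that respond to growth factors. Acetate can be converted to acetyl-CoA inside cells.

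Promoter sequences of 5 genes from the longest domains are shown first, since a promoter lies within each of these domains and their CpG content ranged widely. Each is the 250 bases before the RefSeq start (GRCm38.p6), read 5′ to 3′ on the strand of the gene, with CpG dinucleotides in capitals. The Fndc3b window lay at chr3:27710453-27710702 on the minus strand and held 25 CpG, and the Med13l window lay at chr5:118560469-118560718 on the plus strand and held 51. The Ski window lay at chr4:155222536-155222785 on the minus strand and held 53 CpG, the Egfr window at chr11:16751953-16752202 on the plus strand held 11, and the Lyl1 window at chr8:84701207-84701456 on the plus strand held 5.
Fndc3b: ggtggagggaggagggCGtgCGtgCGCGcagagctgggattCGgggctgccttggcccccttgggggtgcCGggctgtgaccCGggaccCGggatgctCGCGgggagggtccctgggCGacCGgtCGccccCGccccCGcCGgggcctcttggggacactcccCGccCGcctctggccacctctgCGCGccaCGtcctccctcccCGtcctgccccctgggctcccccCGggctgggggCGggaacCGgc
Med13l: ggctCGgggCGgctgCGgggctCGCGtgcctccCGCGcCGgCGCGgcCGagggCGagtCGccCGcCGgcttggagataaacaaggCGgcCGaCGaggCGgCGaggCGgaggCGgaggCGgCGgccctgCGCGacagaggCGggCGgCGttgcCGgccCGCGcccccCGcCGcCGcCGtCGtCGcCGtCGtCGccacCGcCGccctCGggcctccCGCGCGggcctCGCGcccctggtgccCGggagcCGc
Ski: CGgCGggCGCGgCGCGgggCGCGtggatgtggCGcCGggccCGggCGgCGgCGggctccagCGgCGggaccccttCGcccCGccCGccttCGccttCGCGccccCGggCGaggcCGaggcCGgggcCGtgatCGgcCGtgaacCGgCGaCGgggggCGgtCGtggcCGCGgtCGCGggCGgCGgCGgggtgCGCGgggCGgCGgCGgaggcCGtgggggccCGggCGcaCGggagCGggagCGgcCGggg
Egfr: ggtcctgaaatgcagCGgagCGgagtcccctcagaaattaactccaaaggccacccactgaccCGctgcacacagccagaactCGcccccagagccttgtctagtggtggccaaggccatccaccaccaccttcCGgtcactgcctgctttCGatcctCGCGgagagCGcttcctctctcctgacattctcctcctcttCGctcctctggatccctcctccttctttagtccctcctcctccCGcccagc
Lyl1: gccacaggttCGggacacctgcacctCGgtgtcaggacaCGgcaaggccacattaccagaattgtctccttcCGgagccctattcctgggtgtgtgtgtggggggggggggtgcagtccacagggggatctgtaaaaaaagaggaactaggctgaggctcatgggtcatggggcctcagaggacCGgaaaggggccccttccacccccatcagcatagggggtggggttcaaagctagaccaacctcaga
CpG-dense and CpG-poor promoters thus both lay inside the longest domains. None of these 5 windows held the AP-1 motif TGANTCA on either strand. Over the 911 of 1232 genes starting in domains that had a RefSeq promoter of 300 bases (250 before and 50 after the start), the median was 22 CpG, the same as for 8300 genes starting in narrower regions and above the median of 4 CpG for 7310 genes starting in no region.

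The domains covered 53.2 Mb, which was 26.4% of the 201 Mb in all regions. Their median length was 26500 bp, with quartiles of 22500 and 35000 bp and a maximum of 162500 bp. There were 138 domains of 50 kb or more and 9 of 100 kb or more. The table assigns each region to the groups in which it was found, and 1696 domains (99.4%) were assigned to all 3 groups, compared with 79.2% of narrower regions. The other 11 domains were assigned to Young and OldAcetate but not to Old. The X chromosome held 408 regions, of which 2 were domains. At the length limit, the 102 domains of exactly 20000 bp had a median of 2.54 RPM per kb (RPM, reads in a region divided by the reads of its library and multiplied by 1000000), and the 101 regions that were 1 step of 500 bp shorter had 2.59.

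Gene content was read from GENCODE vM21. The start of at least 1 protein-coding gene lay inside 848 domains (49.7%, 95% Wilson interval 47.3% to 52.0%), compared with 39.2% of narrower regions. Another 621 domains overlapped a gene body without its start, and 238 met no protein-coding gene. In all, 1232 protein-coding genes of 21924 (5.62%) started in a domain, whereas 11803 (53.8%) started in a region of any length. There were 225 domains with 2 or more starts, and 585 domains (34.3%) lay wholly within a gene body. Among the 859 domains without a protein-coding start, the median distance to the nearest one was 49942 bp, and 219 of them held the start of a long noncoding RNA gene. Neighbouring domains were usually far apart, with a median gap of 477500 bp, but 194 of 1687 gaps were under 20 kb. Several domains therefore lay within single genes. Foxp1, a forkhead transcription factor gene, was overlapped by 7 domains, Tns3, which encodes a tensin of focal adhesions, by 5, and Fbn1, which encodes the microfibril protein fibrillin-1, by 4 domains that together spanned 200.5 kb.

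The gene content was then read against lists of genes chosen by function. Of 24 genes of the TGF-beta and BMP pathway, which controls matrix production and skeletal differentiation, 16 (66.7%) started in a domain. The share was 5.62% of all protein-coding genes and 10.4% of those starting in a region of any length, as all 24 did. They included the ligands Tgfb2 and Tgfb3, the receptors Tgfbr2, Tgfbr3, Bmpr1a and Acvr1, the signal transducers Smad3 and Smad7, the co-repressors Ski and Skil, and the targets Id1, Id2, Id3 and Tgfbi. Of 22 transcription factors of limb and mesenchyme, 11 started in a domain, among them Prrx1, Twist1, Tbx15, Foxc1, Foxc2, Zeb1 and Zeb2. The counts were 10 of 22 for extracellular matrix genes, 8 of 19 for AP-1 and early response factors, 8 of 22 for genes of the actin cytoskeleton, 6 of 19 for osteoblast genes and 4 of 15 for the YAP, TAZ and TEAD pathway. Adipocyte genes had 3 of 12, namely Cebpa, Cebpb and Ebf1, and cartilage genes had 1 of 12, Trps1. Of 24 genes for acetyl-CoA supply and histone acetylation, 2 started in a domain, the acetyltransferase gene Kat2b and the deacetylase gene Hdac5. Genes that lie in clusters were also frequent, with 18 of 39 Hox genes in 4 domains and 20 of 67 replication-dependent histone genes in 4 domains, and 13 of 83 genes for cytosolic ribosomal proteins were counted. These are counts of genes and not tests, and neighbouring genes share a domain.

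**Figure D1:**
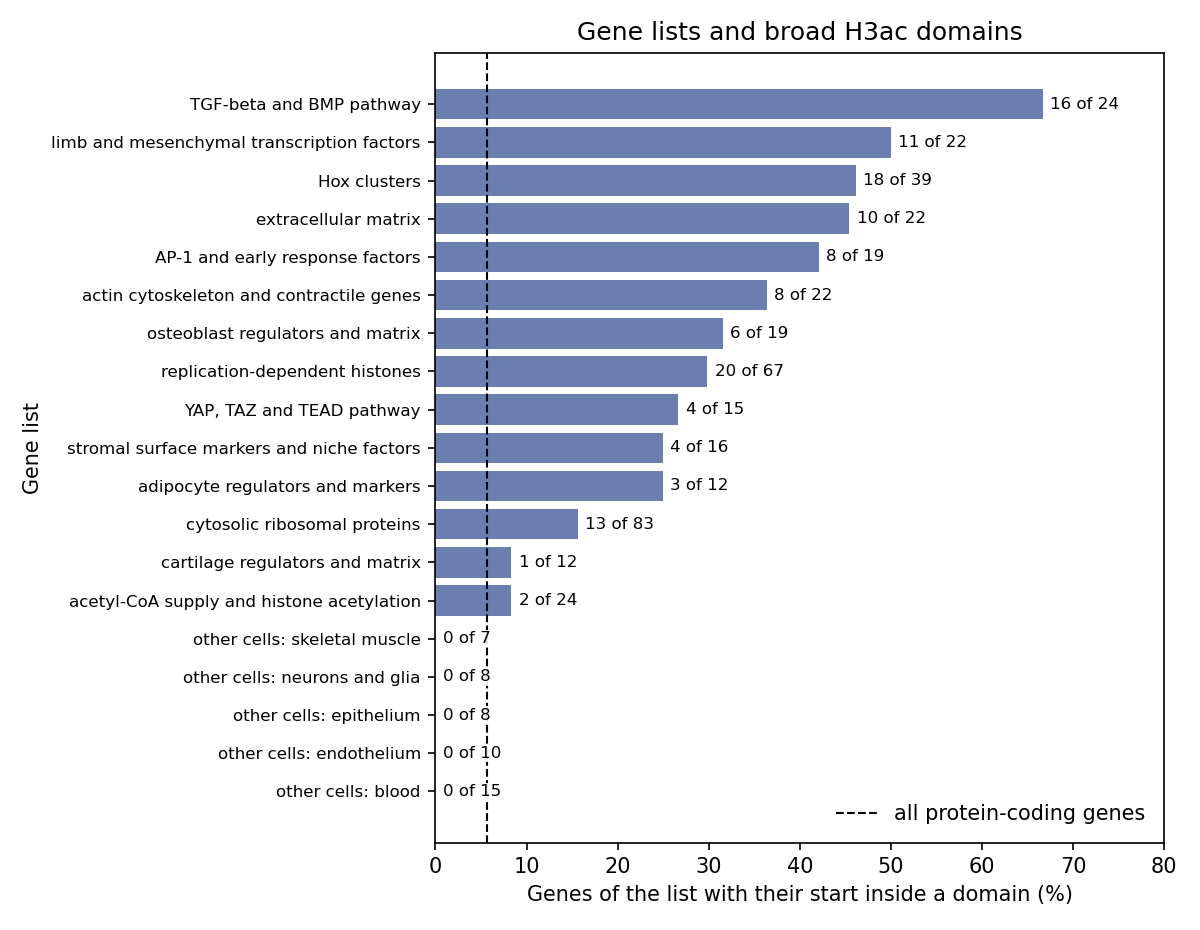
Percent of the genes of each list (vertical axis) whose start lies inside an H3ac domain of 20 kb or more (horizontal axis), with the number of genes beside each bar. The dashed line is the 5.62% of all protein-coding genes, and of genes starting in a region of any length 10.4% start in a domain. The TGF-beta and BMP list stands at 16 of 24 while the 5 lists of other cell types stand at 0.

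The label of the cells was checked against defining markers. All 12 stromal markers had a region at their start, and in 7 of them (Pdgfra, Pdgfrb, Col1a1, Col1a2, Cd44, Prrx1 and Twist1) that region was a domain. Of 16 stromal surface markers and niche factors, 4 started in a domain, Cd44, Pdgfra, Pdgfrb and Csf1. None of 48 markers of other cells started in a domain, and most of them started in no region of any length. The lists held 15 genes for blood, 10 for endothelium, 8 for epithelium, 8 for neurons and glia and 7 for skeletal muscle. The blood list had 2 genes with any region, Spi1 and Cd68, whose summed level was 56.3 and 51.5 RPM in Young, 44.8 and 45.3 RPM in Old and 47.0 and 55.5 RPM in OldAcetate. The endothelial list had 2 such genes, Erg and Sox18, with 61.9 and 53.1 RPM in Young, 49.5 and 44.1 RPM in Old and 52.4 and 53.4 RPM in OldAcetate. The epithelial list had only Krt8, with 13.9 to 32.9 RPM over the 6 libraries, and Ptprc, Pecam1, Cdh5, Epcam, Pax6 and Myod1 started in no region.

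The median density was 2.64 RPM per kb in domains (5th to 95th percentile 1.99 to 3.54) and 2.70 in narrower regions (1.93 to 4.17). Across the 1707 domains, length and density had a Spearman correlation of 0.075, which is a description over regions of the same libraries. Domains with a protein-coding start had a median of 2.79 RPM per kb, those within gene bodies 2.49 and those without a protein-coding gene 2.48. The domains with most starts held gene clusters. The domain from Cend1 to Tspan4 on chromosome 7 and the Hist1 domain on chromosome 13 each held 9 starts, and the Hoxc domain at chr15:102952501-103021000, the Hoxa domain at chr6:52207501-52255000 and the Fosl1 domain on chromosome 19 each held 7. The Hoxc domain, 68.5 kb long, held Hoxc4 to Hoxc11, homeobox genes that pattern the body axis, at 234 and 215 RPM in Young, 196 and 182 RPM in Old and 261 and 219 RPM in OldAcetate. No Hoxb gene started in a region. The lowest density, 1.61 RPM per kb, was in domains over D6Ertd527e and within Mecom.

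The longest domain, 162.5 kb at chr3:27551001-27713500, covered the start and much of Fndc3b, which encodes a membrane protein with fibronectin type III domains. It had 515 and 475 RPM in Young, 359 and 371 RPM in Old and 442 and 434 RPM in OldAcetate. Both Old libraries were the lowest and both Young libraries the highest. The Med13l domain (121.5 kb, chr5:118558001-118679500), over a subunit of the Mediator kinase module, had 334 and 279 RPM in Young, 240 and 237 RPM in Old and 287 and 290 RPM in OldAcetate. Here Young and OldAcetate overlapped and Old lay below both. The Ski domain (116.5 kb, chr4:155108501-155225000), over the gene of a co-repressor of Smad proteins, had 421 and 387 RPM in Young, 283 and 300 RPM in Old and 405 and 378 RPM in OldAcetate, with the same arrangement. The Egfr domain (104.5 kb, chr11:16751001-16855500), over the epidermal growth factor receptor gene, had 373 and 376 RPM in Young, 298 and 270 RPM in Old and 348 and 331 RPM in OldAcetate, in 3 separate ranges. The 103 kb domain at chr8:84697001-84800000 overlapped the transcription factor gene Nfix and held the start of Lyl1, a transcription factor gene of blood cells. It had 362 and 342 RPM in Young, 231 and 248 RPM in Old and 327 and 305 RPM in OldAcetate. Of the 10 longest domains, 9 had both Old libraries below the lowest library of the other groups. In the Ext1 domain the margin was narrow, with 260.7 RPM in Old replicate 1 and 260.8 RPM in OldAcetate replicate 1. This arrangement was common. As given, Old lay wholly below Young in 85.6% of domains and 60.2% of all regions. OldAcetate lay wholly above Old in 75.2% of domains and 47.1% of all regions.

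The other long domains lay over Ext1 (110 kb), which encodes a heparan sulfate polymerase, Zmiz1 (102.5 kb), a transcriptional co-regulator, and Capzb (99 kb), the beta subunit of the actin capping protein. The longest domain without a protein-coding gene spanned 105 kb at chr6:31057501-31162500, 98423 bp from the start of Klf14, and held the starts of 4 noncoding genes. Its values were 327 and 293 RPM in Young, 235 and 237 RPM in Old and 306 and 293 RPM in OldAcetate. Further domains of this kind lay 17983 bp from Ppara (73.5 kb), 16021 bp from the chemokine receptor gene Ackr3 (71.5 kb), 86538 bp from Haao (71 kb) and 32218 bp from Lrrc32 (65 kb). The exception among the 10 longest was the 100 kb domain at chr1:88211001-88311000 over the Ugt1a genes, Mroh2a, Hjurp and Trpm8, with 417 and 474 RPM in Young, 453 and 488 RPM in Old and 487 and 421 RPM in OldAcetate. Its groups overlapped.

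**Figure D2:**
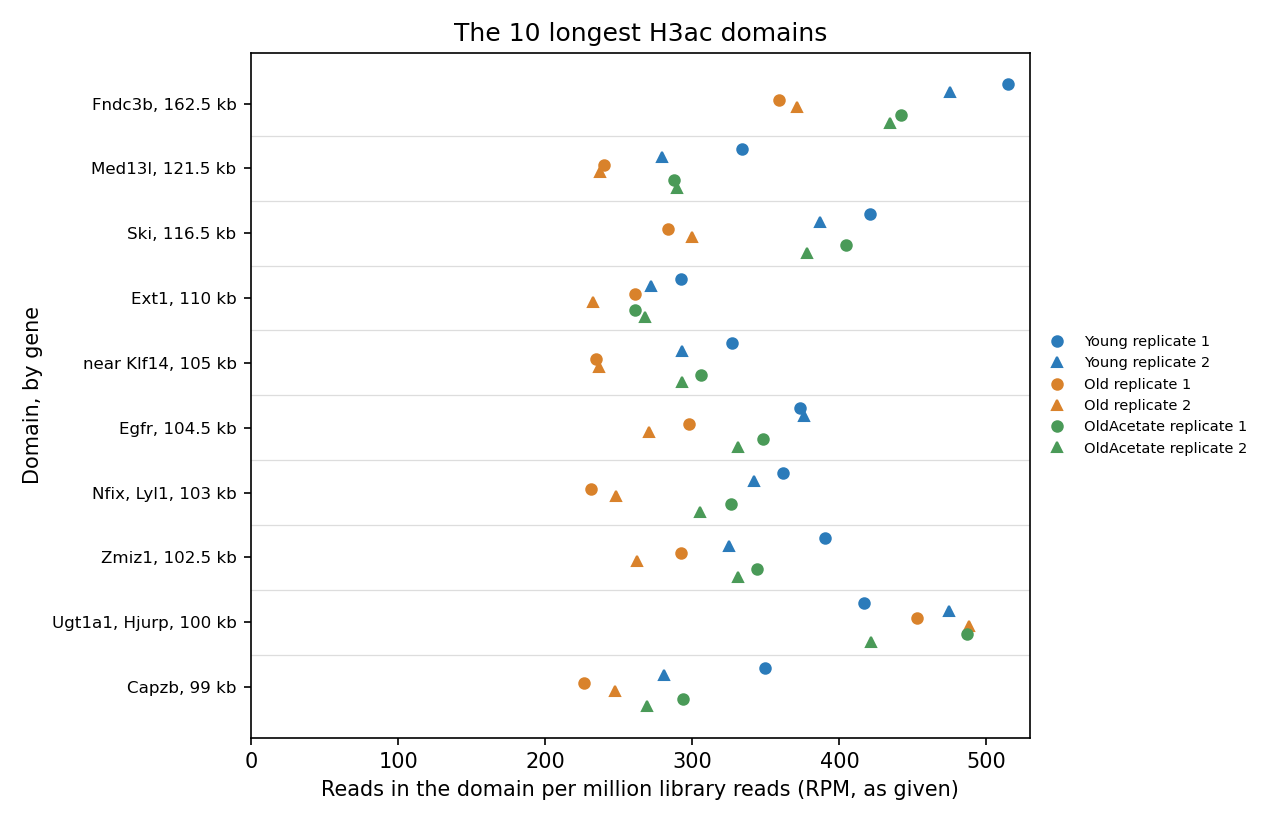
RPM as given (horizontal axis), in each of the 6 libraries for the 10 longest domains (vertical axis). Colours mark groups and shapes mark replicates, and the Old libraries lie to the left except in the domain over Ugt1a1 and Hjurp, where Old replicate 2 has 488 RPM.

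The share of each library that fell inside domains was compared first, as a measure of the whole set. Library totals were those recovered by reading the values as RPM. Young libraries had 17.0% and 14.9% of their reads there, Old libraries 12.8% and 11.99%, and OldAcetate libraries 14.86% and 14.67%. Both Old libraries lay below all others, and Young replicate 2 lay only just above both OldAcetate libraries. The Young mean was 16.0% ± 1.47 (SD, n = 2), the Old mean 12.4% ± 0.562 (SD, n = 2) and the OldAcetate mean 14.8% ± 0.138 (SD, n = 2). The difference was -3.57 percentage points for Old against Young, 2.38 for OldAcetate against Old and -1.19 for OldAcetate against Young, with a pooled SD of 0.911. In each case the exact two-sided permutation test gave p = 0.33, the smallest value that 2 against 2 libraries can give. Counting error was small beside this spread, with a 95% Wilson interval of 16.95% to 17.04% for Young replicate 1.

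**Figure D3:**
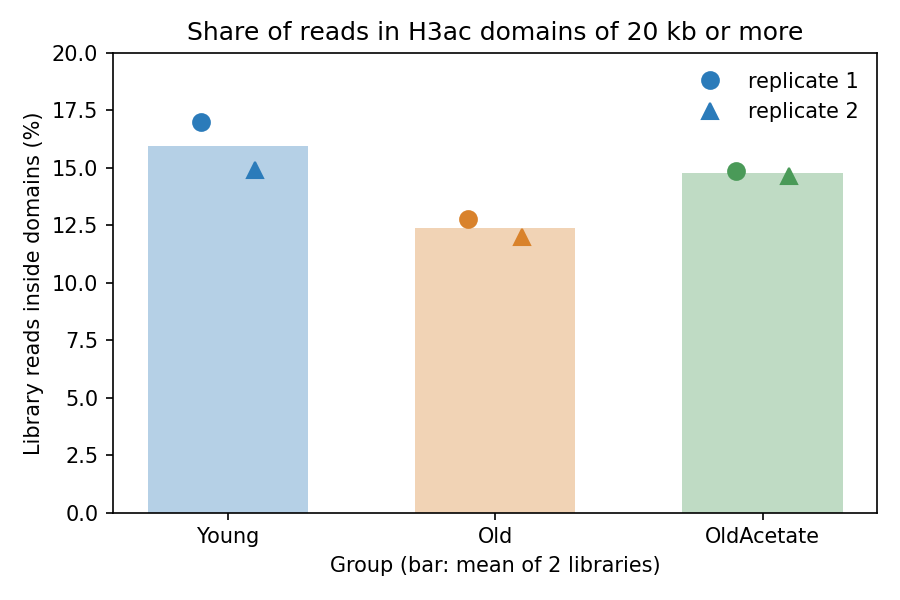
Percent of library reads inside H3ac domains of 20 kb or more (vertical axis) in each group (horizontal axis), with bars for the mean of 2 libraries and points for the libraries. Old lies at 12.8% and 11.99%, below the 4 other libraries at 14.7% to 17.0%.

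The level of the domains followed the same order. The median over domains of log2(RPM + 0.5) averaged 6.35 ± 0.136 (SD, n = 2) over Young libraries, 5.99 ± 0.0767 (SD, n = 2) over Old libraries and 6.25 ± 0.0116 (SD, n = 2) over OldAcetate libraries. On that scale Old differed from Young by -0.36, or 77.9% of the Young level, OldAcetate from Old by 0.25 (119%) and OldAcetate from Young by -0.10 (93.0%), each with an exact permutation p = 0.33. With Young replicate 1 left out the last difference was -0.0088, and with Young replicate 2 left out it was -0.20. The narrower regions had moved alongside. Expressed relative to the narrower regions of the same library, the domain level differed by -0.014 for Old against Young (exact permutation p = 0.67), by 0.013 for OldAcetate against Old (p = 0.67 in the same exact test) and by -0.00097 for OldAcetate against Young (p = 1 in the same exact test), with a pooled SD of 0.018. Thus a difference between domains and narrower regions was not detectable with these libraries. Domains took 25.6% to 26.2% of the reads in regions in every library.

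Single domains were tested with limma over all 24431 regions in 2 ways. The main fit centred each library on its median deviation over all regions, which removes a shift shared by all of them, and the other used the values as given. The centring moved the median change of all regions from -0.35 to -0.0045 (log2) for Old against Young, from 0.24 to 0.0018 for OldAcetate against Old and from -0.11 to 0.0015 for OldAcetate against Young. Below, "centred" values are therefore relative to that shift. A domain held a median of 142 to 264 reads per library, so that its counting error was 6.15% to 8.39%, and replicates differed by a log2 SD of 0.155 in Young, 0.186 in Old and 0.155 in OldAcetate.

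For Old against Young, the comparison of age, 0 domains passed an adjusted p of 0.05 in the centred limma fit, where 0.00819% of all regions were called higher and 0% lower. At an unadjusted p under 0.05, 43 domains were higher and 54 lower, beside 2.88% and 2.66% of all regions, and edgeR with relative log expression factors called 1 domain higher and 0 lower, beside 0.0205% and 0% of all regions. Centred values did not overlap between groups in 254 domains with Old above (all regions 16.9%) and 332 with Old below (all regions 17.1%). On the values as given, limma called 616 domains (36.1%) lower in Old and 1 higher, where 9.5% of all regions were called lower and 0.0287% higher. As given, Old lay wholly below Young in 1461 domains (85.6%), beside 60.2% of all regions, and wholly above in 1, beside 1.29%. The change was negative in 1699 domains (99.5%), beside 92.1% of all regions. The number of calls as given rested on how limma pooled the spread, and it also moved when single libraries were left out. It was 0 without the trend and robust settings, where 339 domains had an unadjusted p under 0.05. Under these other settings calls were counted among domains only, with no share over all regions beside them.

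The share called on the values as given was larger in longer regions. It was 4.25% of regions under 5 kb, 26.2% of domains of 20 to 30 kb, 46.0% of those of 30 to 50 kb and 76.1% of those of 50 kb or more. The median change as given was -0.36 (log2) in the shortest class, -0.34 at 10 to 15 kb and -0.38 at 50 kb or more. The 2 Old libraries differed in this. From the shortest to the longest class the median deviation of Old replicate 1 ran from -0.12 to -0.18, while that of Old replicate 2 stayed at -0.25. The median reads per region ran from 24 in the shortest to 432 in the longest class. The part of read depth in these calls was not tested.

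**Figure D4:**
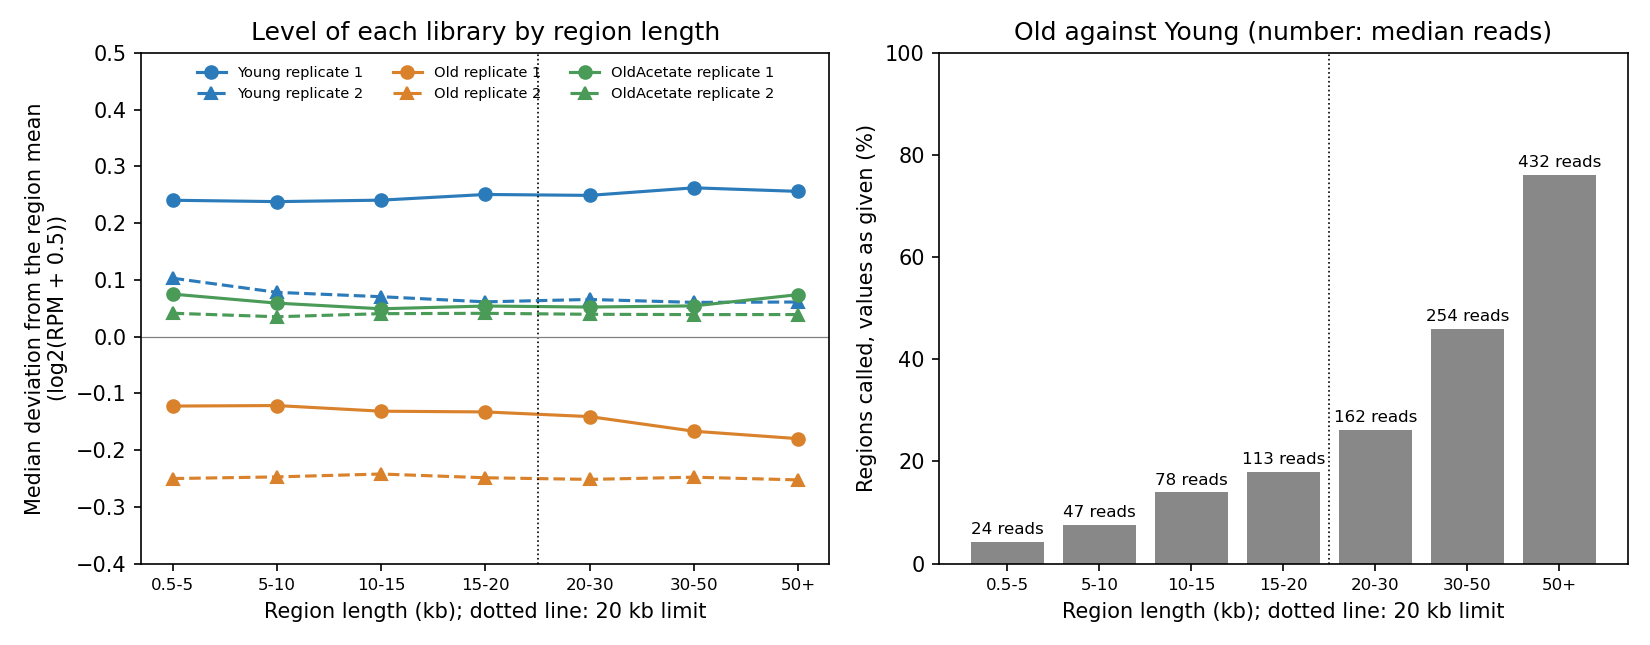
Left, median deviation of each library from the region mean of log2(RPM + 0.5) (vertical axis) in 7 classes of region length in kb (horizontal axis). Right, percent of regions called in Old against Young by limma on the values as given (vertical axis) in the same classes. The median reads of a region stand above each bar. The level of Old replicate 1 runs from -0.12 to -0.18 with length and that of Old replicate 2 stays near -0.25. The calls run from 4.25% to 76.1%.

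Among the genes of the lists, the calls as given in Old against Young were spread over several functions, beside the 36.1% of all domains. They took 10 of 16 domains with TGF-beta and BMP genes, 5 of 8 with actin cytoskeleton genes, 5 of 10 with extracellular matrix genes, 3 of 6 with osteoblast genes, 3 of 8 with AP-1 and early response genes, 2 of 4 with stromal markers and 2 of 3 with adipocyte genes. They took 2 of 11 domains with limb and mesenchymal factors, 2 of 12 with ribosomal protein genes, 1 of 4 with YAP pathway genes, 1 of 4 with histone genes, and 0 of 4 with Hox genes, 0 of 1 with Trps1 and 0 of 2 with acetylation genes. In the centred fit the median change per list lay between -0.08 for TGF-beta and BMP genes and 0.07 for Hox clusters, beside -0.013 for all domains, and 0 domains of any list were called.

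Of the TGF-beta ligands, Tgfb3 started in a 37 kb domain with 131 and 125 RPM in Young, 96.6 and 76.8 RPM in Old and 105 and 113 RPM in OldAcetate. Old lay below both other groups. Its change as given from Young to Old was -0.57 (limma adjusted p = 0.0093), and the centred change was -0.22 (limma adjusted p = 0.89). The platelet-derived growth factor receptor gene Pdgfra, a stromal marker, started in a 24 kb domain with 84.6 and 71.5 RPM in Young, 56.9 and 46.5 RPM in Old and 72.9 and 79.2 RPM in OldAcetate. Old was again the lowest group, with a change as given of -0.59 (limma adjusted p = 0.013) and a centred change of -0.24 (limma adjusted p = 0.89). The domain of Fos, an AP-1 subunit, was 48.5 kb long and had 157 and 117 RPM in Young, 98.9 and 88.7 RPM in Old and 119 and 123 RPM in OldAcetate. Sp7, a transcription factor of osteoblasts, had 105 and 91.1 RPM in Young, 68.9 and 70.8 RPM in Old and 93.8 and 90.1 RPM in OldAcetate over 33.5 kb. Both had Old as the lowest group, with changes as given of -0.53 and -0.48 (limma adjusted p = 0.011 and 0.023). Their centred changes were -0.18 and -0.13 (limma adjusted p = 0.89 and 0.93). As given, Old lay wholly below Young in 85.6% of all domains. The extracellular matrix gene Col5a1, a fibrillar collagen, had 192 and 179 RPM in Young, 143 and 136 RPM in Old and 179 and 156 RPM in OldAcetate over 66 kb.

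Other domains of the same lists missed the threshold. Prrx1, a homeobox gene of limb mesenchyme, had 177 and 162 RPM in Young, 134 and 137 RPM in Old and 171 and 176 RPM in OldAcetate over 53.5 kb, and its change as given of -0.32 missed the threshold (limma adjusted p = 0.053). Col1a2, a chain of type I collagen, had 130 and 131 RPM in Young, 106 and 112 RPM in Old and 126 and 134 RPM in OldAcetate over 46 kb. Its centred change in Old against Young was 0.09. The histone domain of Hist1h4c had 54.3 and 44.9 RPM in Young, 51.8 and 46.1 RPM in Old and 52.8 and 55.1 RPM in OldAcetate. Young overlapped both other groups, and OldAcetate lay above Old.

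The domains with the lowest unadjusted p in the centred limma fit of Old against Young were described next. They were taken from domains whose groups did not overlap when centred, and none passed adjustment (limma adjusted p 0.737 to 0.81). Relative to the shared shift, Old was lower by -0.45 in the domain of Gcnt4, a glycosyltransferase gene, with 70.7 and 63.3 RPM in Young against 38.4 and 38.2 RPM in Old. The Nfix and Lyl1 domain had a centred change of -0.20, and the domain of Cspg4, which encodes the pericyte proteoglycan NG2, one of -0.32, with 135 and 121 RPM in Young against 86.0 and 74.4 RPM in Old. A 60 kb domain inside Cubn, the gene of the endocytic receptor cubilin, had 235 and 225 RPM in Young against 163 and 148 RPM in Old and a centred change of -0.22. In all 4, both Old libraries lay below both Young libraries as given. In the other direction, the domain of Foxc1, a forkhead factor of mesenchyme, had 86.2 and 82.1 RPM in Young and 84.1 and 79.5 RPM in Old, a centred change of 0.31 but a change as given of -0.04. A domain inside Trio had centred and given changes of 0.32 and -0.03, one inside Gipc2 had 0.36 and 0.01, and one 91986 bp from Tnc had 0.47 and 0.12. As given, Old and Young overlapped in these 4 domains.

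**Figure D5:**
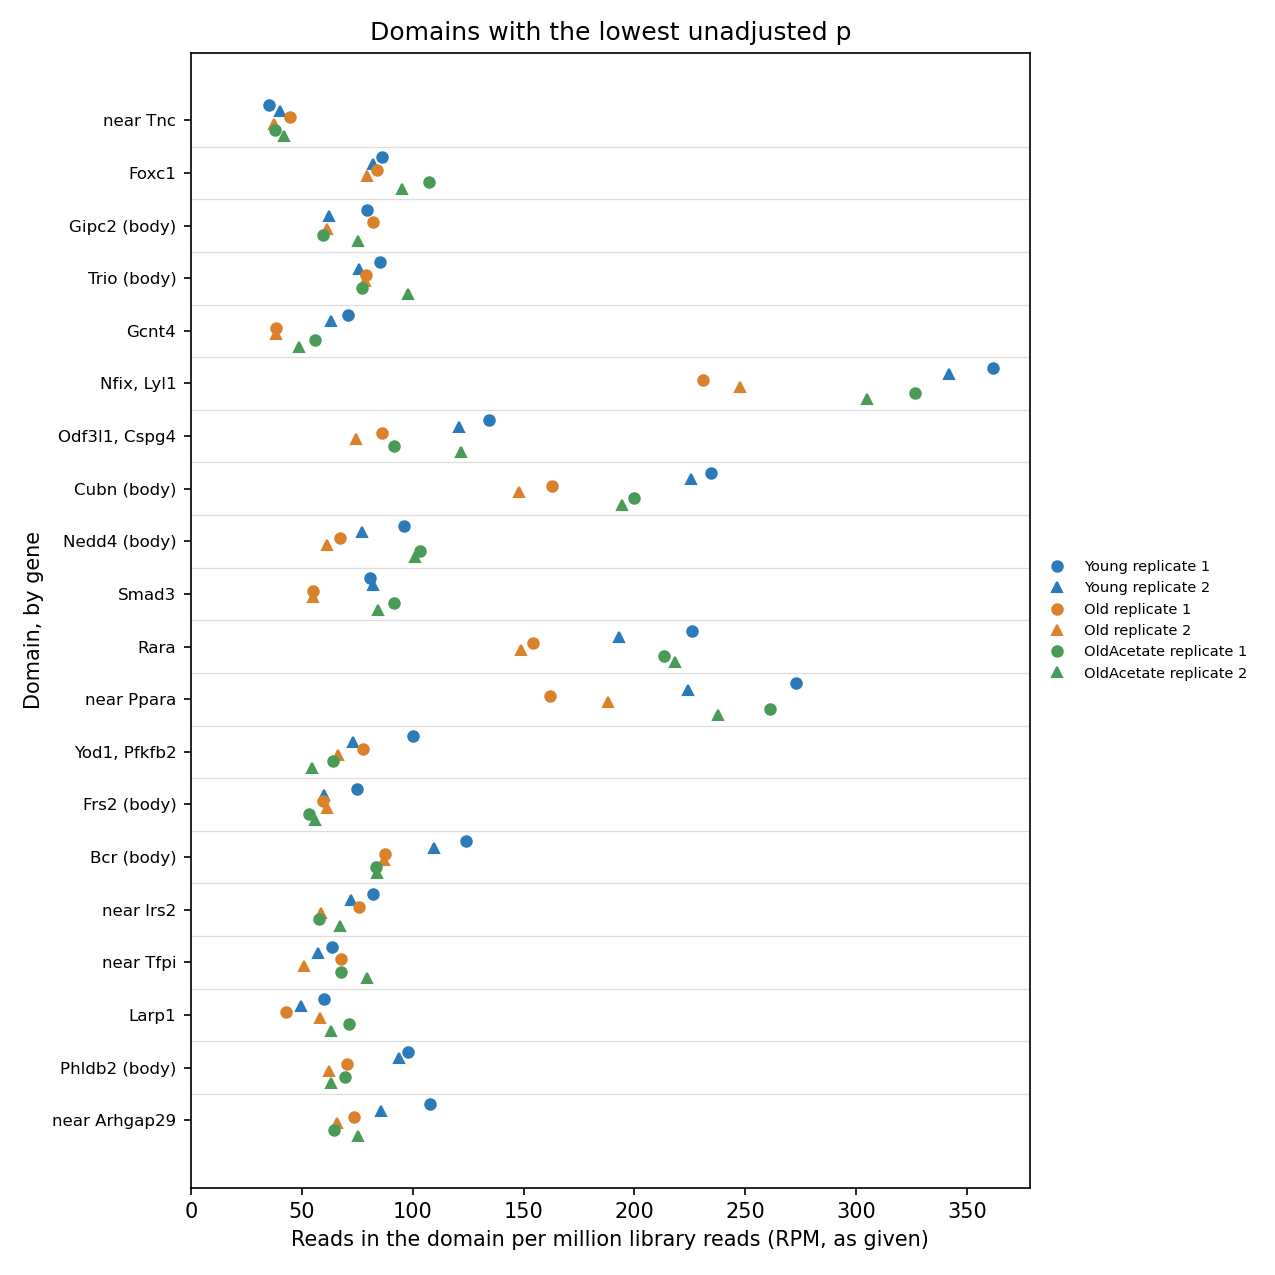
RPM as given (horizontal axis), in each library for 20 domains (vertical axis). They have the lowest unadjusted p in the centred limma fit, taking 4 in each direction in each comparison. Only domains whose groups do not overlap when centred were eligible. In the Smad3 domain both Old libraries stand at 55 RPM, below 80.6 to 91.7 RPM in the other 4 libraries, whereas in the Bcr domain Young stands above the other groups.

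For OldAcetate against Old, the comparison of acetate in old cells, 0 domains passed in the centred limma fit, as did 0% of all regions in either direction. At an unadjusted p under 0.05, 72 domains were higher and 37 lower, beside 3.15% and 3.09% of all regions, and edgeR with relative log expression factors called 0. Centred values did not overlap in 346 domains with OldAcetate above (all regions 16.7%) and 248 with OldAcetate below (all regions 17.2%). On the values as given, limma called 19 domains higher in OldAcetate and 0 lower, beside 0.311% and 0% of all regions. As given, OldAcetate lay wholly above Old in 1284 domains (75.2%), beside 47.1% of all regions, and wholly below in 6, beside 3.46%. These calls too depended on the setting and on single libraries. There were 0 without the trend and robust settings, where 72 domains had an unadjusted p under 0.05, again counted among domains only. The comparison shares the Old libraries with the comparison of age, so the 2 sets of changes are not independent.

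The 19 domains called as given lay at named genes with several roles. The domain of Smad3, the transducer of TGF-beta signals, was 25 kb long (chr9:63735001-63760000) and had 80.6 and 82.1 RPM in Young, 55.0 and 54.9 RPM in Old and 91.7 and 84.3 RPM in OldAcetate. Old lay below both other groups, with a change to OldAcetate of 0.67 as given (limma adjusted p = 0.022) and 0.43 centred (limma adjusted p = 0.38). A 32.5 kb domain inside Nedd4, a ubiquitin ligase gene, had 96.1 and 77.2 RPM in Young, 67 and 61.2 RPM in Old and 103 and 101 RPM in OldAcetate, with changes of 0.67 as given and 0.43 centred. Rara, the retinoic acid receptor alpha gene, started in a 55 kb domain with 226 and 193 RPM in Young, 154 and 149 RPM in Old and 213 and 218 RPM in OldAcetate. The 73.5 kb domain near Ppara, over the noncoding gene Lncppara, had 273 and 224 RPM in Young, 162 and 188 RPM in Old and 261 and 238 RPM in OldAcetate. Rara and this domain both had a change of 0.51 as given and 0.27 centred, and Old was the lowest group in each. Ski and Tbx15, a T-box factor of limb mesenchyme, were also called as given, with changes of 0.42 and 0.47. The rest lay at Cdc42bpa, Gsn, Hspg2, Tnrc18, Mrpl53 to Ino80b, Ppfibp1, Ptgir with Calm3, Cic, Nfix with Lyl1, Loxl1 and Tns2, and within Mbnl1 and the span of 2010111I01Rik with Fancc. By list, the calls were 2 of 16 domains with TGF-beta and BMP genes and 1 of 11 with limb and mesenchymal factors, and 0 in every other list, beside 1.11% of all domains.

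Domains with starts and domains without them had different medians of the centred change with acetate. This is a description, and its spread between libraries was not tested. The median was 0.036 in domains with a protein-coding start, -0.015 in those within gene bodies and -0.016 in those without a protein-coding gene. The narrower regions had 0.058, -0.033 and -0.048 in the same classes. Domains with OldAcetate below Old were taken by lowest unadjusted p among those whose groups did not overlap when centred. The domain of the deubiquitinase gene Yod1 and of Pfkfb2, which encodes a regulator of glycolysis, had 77.7 and 66.4 RPM in Old. In OldAcetate it had 64.2 and 54.6 RPM, with a centred change of -0.51 (limma adjusted p = 0.31). Domains inside Frs2, an adaptor gene of FGF receptors, and Bcr had centred changes of -0.38 and -0.30, and a domain 27958 bp from Irs2, an insulin receptor substrate gene, had -0.33. As given their changes were between -0.06 and -0.28, and the groups overlapped in the domain near Irs2.

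For OldAcetate against Young, 0 domains passed in the centred limma fit and 0 on the values as given, as did 0% of all regions in each. At an unadjusted p under 0.05, 42 domains were higher and 35 lower in the centred fit, beside 2.45% and 2.63% of all regions. On the values as given 1 was higher and 112 were lower, beside 0.479% and 5.62% of all regions, and edgeR with relative log expression factors called 0. As given, OldAcetate lay wholly below Young in 603 domains (35.3%), beside 29.8% of all regions, and wholly above in 39, beside 7.6%. Centred values did not overlap in 302 domains with OldAcetate above (all regions 17.7%) and 293 below (all regions 18.1%). The domain inside Phldb2, a gene for a membrane anchor of microtubules, had 98.0 and 93.9 RPM in Young, 70.3 and 62.4 RPM in Old and 69.6 and 63.0 RPM in OldAcetate. The domain inside Bcr, which encodes a GTPase-activating protein, had 124 and 109 RPM in Young, 87.4 and 87.1 RPM in Old and 83.3 and 83.8 RPM in OldAcetate. In both, Old and OldAcetate lay below Young, with centred changes from Young to OldAcetate of -0.42 and -0.37 (limma adjusted p = 0.85 and 0.87). The Yod1 and Pfkfb2 domain had -0.41 and a domain 16041 bp from Arhgap29 had -0.35. In the other direction, Foxc1 had 108 and 95.1 RPM in OldAcetate, above the 86.2 and 82.1 RPM in Young, with a centred change of 0.38 (limma adjusted p = 0.87). Larp1, the gene of a regulator of messenger RNAs for ribosomal proteins, had 0.41, a domain 62226 bp from Tfpi had 0.39 and the Nedd4 domain had 0.35.

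The domain that stood apart from all others in density was the 21.5 kb domain over Sfi1 and Eif4enif1 at chr11:3183501-3205000. It had 15.5 RPM per kb, while the next, inside the actin-binding protein gene Lsp1, had 5.53. Its values were 234 and 329 RPM in Young, 387 and 386 RPM in Old and 353 and 317 RPM in OldAcetate, so that Old lay above both other groups. This was the only domain called higher in Old than in Young on the values as given, with a change of 0.48 (limma adjusted p = 0.0043), and in the centred fit the change was 0.83 with an SE of 0.27 (limma adjusted p = 0.89). Of its bases, 40.9% were soft-masked as repeats, compared with a median of 19.8% over domains, and the part of repeats in its level was not tested. The domain over Ugt1a1 and Hjurp, with 4.57 RPM per kb, was also among the 5 densest, together with those of Crip2 with Crip1 (4.92) and of Spaca6 with the hyaluronan synthase gene Has1 (4.36). Repeat content at the Ugt1a1 and Hjurp domain was 17.9%.

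Short motifs were counted in the domain sequences on both strands, as a description of their composition. The AP-1 motif TGANTCA occurred 0.348 times per kb in domains, 0.290 in narrower regions with a protein-coding start, 0.415 in narrower regions without one and 0.317 over the genome. The TEAD motif GGAATG occurred 0.609 times per kb in domains, 0.544 in narrower regions with a start, 0.645 in those without and 0.593 over the genome. The RUNX motif TGTGGT occurred 0.882, 0.761, 0.885 and 0.775 times per kb in the same order, so domains did not exceed narrower regions without a start for either motif. The E-box CAGCTG occurred 0.579, 0.519, 0.548 and 0.395 times per kb, and CpG 13.9, 23.7, 11.5 and 8.34 times. At this length nearly every domain held each motif, with the AP-1 letters in 1706 of 1707 domains and a median of 10 matches. In the 300-base promoters, the AP-1 letters were present in 4.83% of genes starting in domains, 4.39% of genes starting in narrower regions, 10.2% of genes starting in no region and 6.99% of all genes. A match marks letters and not a bound factor.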

How the data were processed

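H3ac CUT&RUN of 6 MSC libraries was deposited as 1 table of 24431 regions. The submitters' processing notes name Bowtie2, Picard and mm10. The caller of the regions is not given in the sources used here, nor is any use of the yeast DNA that was added to the stop buffer. The deposited values behave as RPM, reads divided by the library total and multiplied by 1000000, and not as RPKM, because every value was a whole multiple of the value of 1 read in its library (100% within 0.01 read). The library totals recovered on this reading ran from 2163351 to 3039481 reads.

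Protein-coding genes and their most 5′ start were taken from GENCODE vM21 and sequences from GRCm38 and RefSeq (GRCm38.p6). log2(RPM + 0.5) was fitted with limma 3.58.1 in R 4.3.3 (eBayes with trend and robust) over all regions and libraries, with Benjamini-Hochberg adjustment at 0.05. Each library was centred on its median deviation. A fold change on the log2(RPM + 0.5) scale understates changes of low regions. Values per library were compared with exact permutation tests. edgeR 4.0.16 on the recovered reads, other scalings, pseudocounts, limits and fits with libraries left out were alternatives. Only the centred limma fit of Old against Young was tested on simulated data, and the fit on the values as given and edgeR were not.

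Named domains were the 10 longest, the 5 with most starts, the 5 longest without a protein-coding gene, the 5 highest and 5 lowest in RPM per kb, those called, the 4 lowest p in each direction among domains whose groups do not overlap when centred, and listed genes in the 4 longest domains per list. The 19 domains called as given and domains called under alternatives were named after their values were seen. The members and lists were chosen with earlier results of these data known. Wilson intervals cover counting error only. Figures were drawn with matplotlib 3.10.9.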

Additional observations from a re-analysis of the deposited data

How the results depend on the processing

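The counts of called domains depended on scaling. In Old against Young, limma called 617 domains with no scaling (all regions 9.5% lower and 0.0287% higher) and 0 centred (all regions 0.00819% higher). With quantile normalization it called 2, Fndc3b and Ski, lower in Old (all regions 0.0082% lower and 0.0123% higher). In the same comparison edgeR called 669 without factors (all regions 10.3% lower and 0.0287% higher). With relative log expression factors it called 1, the Ugt1a1 and Hjurp domain (all regions 0.0205%). In OldAcetate against Old the counts were 19 with no scaling (all regions 0.311%) and 6 by edgeR without factors (all regions 0.086%). There were 2 (Fndc3b and Ski, higher) with quantile normalization (all regions 0.0082%). With only the 4 compared libraries there was 1, the Sfi1 domain, lower (all regions 0.0082%). Leaving out 1 library gave few or no calls in the centred fit, among domains and among all regions alike. On the values as given, where further settings were chosen after seeing the data, leaving out 1 library gave 8 to 866 domains in Old against Young, 0 to 119 in OldAcetate against Old and 0 to 1 in OldAcetate against Young, and eBayes without trend and robust gave 0 in each. In the centred fit, the Sfi1 domain was called in Old against Young without Young replicate 1, and the Sfi1 and Ugt1a1 to Hjurp domains without Young replicate 2.

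The difference between domains and narrower regions changed sign in Old against Young with the mean over regions (0.0012) and in OldAcetate against Young with a pseudocount of 0.1 (0.0011), the mean over regions (0.010) and limits of 15000 bp (0.00067) and 30000 bp (0.0014). With 1 library left out it ran from -0.030 to 0.0019, from 0.00016 to 0.031 and from -0.013 to 0.018 in the 3 comparisons. With no scaling the changes of Foxc1 and Trio in Old against Young were -0.040 and -0.032, and by edgeR without factors -0.044 and -0.039. The share of domains with a protein-coding start was 86.1% for any overlap with the gene, 46.1% at 15000 bp and 52.7% at 30000 bp.

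The replicate block gave 0 called domains in all 3 comparisons, as did the fit without it. On the values as given it gave 870, 77 and 0, counted among domains only. Whether the replicate numbers pair the libraries was not settled. Replicate differences over domains correlated at 0.043, -0.092 and -0.075 between pairs of groups. Such a correlation leaves out the level of a whole library. Replicate 1 had the larger share of reads in domains in each group. It was 17.0% against 14.9% in Young, 12.8% against 11.99% in Old and 14.86% against 14.67% in OldAcetate. The share of reads in domains differed by -2.23 points without Young replicate 2 and -0.154 without Young replicate 1 in OldAcetate against Young. With 2 libraries a group, exact tests could not pass 0.05, and the median SE of a change was 0.12 in domains and 0.24 in narrower regions (log2).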

Other observations

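Several genes were overlapped by many domains. Ext1, Asap1, Tgfbr3, Ptpn14, Myo10, Rbpj, Dlc1 and Igf1r were each overlapped by 4 domains. Those of Ext1 summed to 203.5 kb, beside a gene length of 282 kb. The sums are full domain lengths, which can run past the ends of a gene. The domains over Tgfbr3, which encodes the TGF-beta co-receptor betaglycan, summed to 146 kb, beside a gene length of 183 kb. Those over Ptpn14, which encodes a phosphatase of the YAP pathway, summed to 142 kb, beside 148 kb. The annotated model Gm20388, 4435 kb long, was overlapped by 16 domains and spans other genes. There were 91 domains with a miRNA gene and 277 that covered a whole protein-coding gene.

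In the domains of Tead1 and Hoxd3, the OldAcetate libraries lay on both sides of Old. OldAcetate lay wholly above Old in 1284 of 1707 domains, so overlap of these groups was not particular to them. Tead1, a transcription factor gene of the YAP pathway, had 88.2 and 66.2 RPM in Young, 55.5 and 54.9 RPM in Old and 52.4 and 67.6 RPM in OldAcetate. Hoxd3 had 69.4 and 58.8 RPM in Young, 53.2 and 48.9 RPM in Old and 63.8 and 38.4 RPM in OldAcetate, so the OldAcetate libraries lay on both sides of Old. These 2 domains were chosen after their values were seen.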
